A study of Mus musculus with 6 samples.

Results

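The 35 genes described here encode the enzymes and transporters of glycolysis, lactate and glycogen metabolism, with the pyruvate-handling enzymes of mitochondria and the hypoxia regulator Hif1a. They were taken by gene name from the count tables of inguinal white adipose tissue (IngWAT), the subcutaneous fat pad of the groin, and all 35 were found among 34745 genes. SAKI mice (n = 3) carried an LSL-Slc35d3 transgene locus together with adiponectin-Cre, so that removal of a stop sequence by Cre turned the transgene on in cells that use the adiponectin promoter, which are chiefly adipocytes. WT mice (n = 3) carried the Slc35d3 alleles without Cre. Both groups were C57BL/6 males, began the normal chow diet (NCD, 10 kcal% fat) at 6 weeks of age, stayed on it for 10 weeks and were 16 weeks old at the end; the labels of both also give the treatment as PBS perfusion. No library preparation date or batch is named in the labels. Per-library values below are CPM, the reads of a gene relative to the size of its library after TMM scaling in edgeR, and levels of different genes are compared only as FPKM, which also divides by gene length.

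In fat cells glucose enters through glucose transporters, is trapped by hexokinase and is broken down to pyruvate. Pyruvate is either reduced to lactate by lactate dehydrogenase and exported, or carried into mitochondria and oxidized by pyruvate dehydrogenase, which its kinases switch off. Glycogen is a small and quickly turned over glucose store in adipocytes, and HIF-1 is the transcription factor that raises many glycolytic genes when oxygen is low. HIF-1 binds DNA at the core letters ACGTG or GCGTG, and the E-box CACGTG is bound by factors such as MYC and ChREBP.

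None of the 35 genes passed an adjusted p of 0.05 with edgeR's quasi-likelihood test, against 5 of the 15400 genes tested (0.0325%; 0.0195% higher and 0.0130% lower in SAKI mice). DESeq2 also called 0 of them, with a smallest adjusted p of 0.0624, for Mpc2, against 2.01% of genes called higher and 2.69% called lower. At an unadjusted p under 0.05 with edgeR, Pgk1, Ldha, Slc16a1 and Mpc2 were lower in SAKI mice, 4 of 35 or 11.4%, against 9.99% of all genes, and Pfkfb3 and Pdk1 were higher, 2 of 35 or 5.71%, against 8.36%. Both shares lay near the background. The log2 fold changes ran from -1.30 for Slc16a1 to 1.17 for Pfkfb3, and 25 of 35 were below 0, against 50.4% of all genes, with a median of -0.19 against -0.0035 over all genes tested. All 35 passed the filter on low counts, with 116 to 86298 reads over the 6 libraries.

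**Figure D1:**
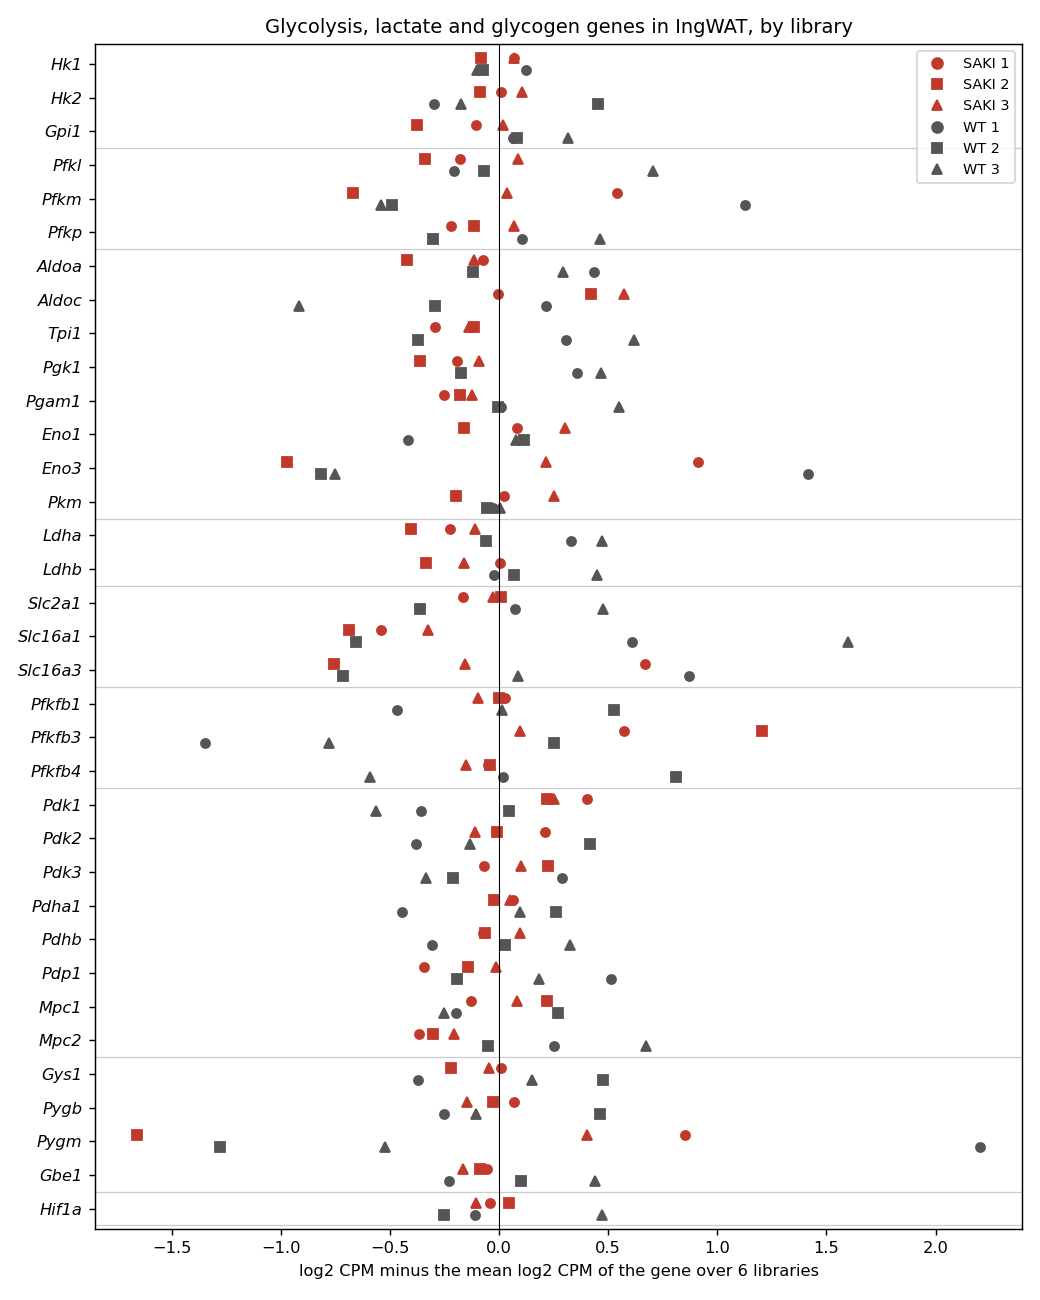
Each of the 35 genes in each of the 6 libraries, as log2 CPM minus the gene's own mean log2 CPM over the 6 libraries, with SAKI mice in red above WT mice in grey and grey lines between the roles. Slc16a1, Pfkfb3, Pygm, Eno3 and Pfkm were spread most widely, and for 32 of 35 genes (91.4%, against 76.4% of the genes tested) the SD among WT mice was above that among SAKI mice.

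The libraries held 15354161 to 18787036 counts. Slc35d3 was at 745, 792 and 769 CPM in SAKI mice against 73.2, 82.0 and 74.4 CPM in WT mice, with no overlap. The libraries of WT mice were unlike one another. On principal component 1 (49.6% of the variance) WT 2 lay at -20.0 among the SAKI libraries (-24.1 to -20.0), far from WT 1 at 36.1 and WT 3 at 51.6, so the counts of calls are given with and without WT 2. Mature adipocyte markers were present in every library, with a summed level between 25335 and 28468 CPM in SAKI mice and between 27907 and 37468 CPM in WT mice, and 15 of 16 had a log2 fold change below 0 (8 lower at an unadjusted p under 0.05 with edgeR). The 5 red cell markers summed to 89.0 to 92.6 CPM in SAKI mice against 181 to 442 CPM in WT mice. All 5 were lower at an unadjusted p under 0.05 with edgeR. The immediate early genes, which answer to handling of a tissue, summed to 585 to 701 CPM in SAKI mice against 781 to 1243 CPM in WT mice. Of these 15 genes, 7 were lower at that p and 14 had a log2 fold change below 0. Endothelial markers summed to 1197 to 1294 CPM in SAKI mice against 1384 to 1416 CPM in WT mice (3 of 10 lower at an unadjusted p under 0.05), macrophage markers to 1984 to 2370.1 CPM in SAKI mice against 917 to 1915 CPM in WT mice (3 of 10 higher), and Schwann cell and nerve markers to 461 to 577 CPM in SAKI mice against 277 to 461 CPM in WT mice (4 of 9 higher). B cell markers overlapped, at 859 to 997 CPM in SAKI mice against 549 to 978 CPM in WT mice (2 of 10 higher). Mitochondrially encoded genes took 13.1% to 15.9% of the counts in SAKI mice against 7.31%, 13.8% and 8.78% in WT mice. The part of these in the values below was not tested, and in whole tissue fewer cells of a type and less RNA per cell cannot be told apart.

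Promoter windows of Ldha, Pgk1, Slc16a1 and Pdk1 are shown because these genes were among those with an unadjusted p under 0.05, the first 3 lower and Pdk1 higher, and because the HIF-1 core and the E-box are the elements for which glycolytic promoters are known. Each is the 250 bases before the RefSeq start site in GRCm38.p6, read 5′ to 3′ on the strand of the gene, with ACGTG and GCGTG on either strand in capitals (CACGT and CACGC are their reverse complements, and CACGTG holds ACGTG on both strands). The windows lie at chr7:46845554-46845803 on the plus strand for Ldha, chrX:106186850-106187099 on the plus strand for Pgk1, chr3:104638414-104638663 on the plus strand for Slc16a1 and chr2:71872974-71873223 on the plus strand for Pdk1. In GRCm38 the genes themselves span chr7:46841475-46855627 for Ldha, chrX:106187100-106203699 for Pgk1, chr3:104638668-104658462 for Slc16a1 and chr2:71873224-71903858 for Pdk1, all on the plus strand. The RefSeq start of Ldha is 4329 bases inside the gene as the deposited data give its span.
Ldha: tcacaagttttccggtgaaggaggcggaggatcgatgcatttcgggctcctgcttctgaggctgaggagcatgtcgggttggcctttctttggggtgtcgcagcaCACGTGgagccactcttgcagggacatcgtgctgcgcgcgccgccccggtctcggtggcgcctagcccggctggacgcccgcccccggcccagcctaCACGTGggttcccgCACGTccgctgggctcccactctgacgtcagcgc
Pgk1: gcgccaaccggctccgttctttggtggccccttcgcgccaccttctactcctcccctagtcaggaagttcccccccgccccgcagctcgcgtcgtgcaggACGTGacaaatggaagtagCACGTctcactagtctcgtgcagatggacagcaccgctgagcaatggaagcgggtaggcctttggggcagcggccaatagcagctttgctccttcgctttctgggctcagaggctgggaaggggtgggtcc
Slc16a1: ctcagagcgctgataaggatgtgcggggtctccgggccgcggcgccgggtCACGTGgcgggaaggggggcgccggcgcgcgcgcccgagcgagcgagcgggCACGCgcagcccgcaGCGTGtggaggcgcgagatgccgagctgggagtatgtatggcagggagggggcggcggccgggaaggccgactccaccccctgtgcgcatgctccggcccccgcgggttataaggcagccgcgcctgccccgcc
Pdk1: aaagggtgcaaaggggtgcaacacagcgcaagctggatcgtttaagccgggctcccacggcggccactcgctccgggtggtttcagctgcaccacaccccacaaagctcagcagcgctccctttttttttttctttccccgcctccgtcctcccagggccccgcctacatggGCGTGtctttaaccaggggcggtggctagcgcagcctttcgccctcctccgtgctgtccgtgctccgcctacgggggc
Ldha had 5 matches to ACGTG, which came from 2 E-boxes and 1 further core, Pgk1 had 2 cores, Slc16a1 had 1 E-box and 2 GCGTG cores, and Pdk1 had 1 GCGTG core and no ACGTG. Of the 34 members with a window, 15 held ACGTG (44.1%), against 17.5% of 18586 promoters of the same length, 19 held GCGTG (55.9% against 33.1%) and 5 held CACGTG (14.7% against 6.58%). These shares were not particular to the members. In 58 windows of other pathway genes and HIF-1 targets, both described below, they were 36.2% for ACGTG, 56.9% for GCGTG and 13.8% for CACGTG. Both Pfkfb3 and Pgam1 had 1 ACGTG, and Gpi1 had neither core. Mpc2 had 1 GCGTG. A match only says that these letters stand in the window.

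In the first steps, Gpi1, which turns glucose-6-phosphate into fructose-6-phosphate, was the one gene whose groups did not overlap. It was at 248, 205 and 270.2 CPM in SAKI mice against 279, 282 and 332 CPM in WT mice. Its log2 fold change was -0.30 (SE 0.14, adjusted p = 0.303 from edgeR). Every SAKI library lay below every WT library, although SAKI 3 and WT 1 were close. Hk2, the insulin-responsive hexokinase, was at 114, 107 and 122 CPM in SAKI mice against 92.2, 155 and 100.3 CPM in WT mice, and Hk1, the housekeeping form, at 68.0, 61.2 and 68.0 CPM in SAKI mice against 70.6, 61.6 and 60.5 CPM in WT mice. For Hk2 the SAKI libraries lay inside the WT range and WT 2 was the highest of all. Hk2 made up 70.3% ± 0.641 of hexokinase FPKM (Hk1 plus Hk2) in SAKI mice and 71.1% ± 7.20 in WT mice (SD, n = 3 each).

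The phosphofructokinases carry out the committed step of glycolysis. Pfkl, the liver-type subunit, was at 113, 101 and 136 CPM in SAKI mice against 111, 122 and 209 CPM in WT mice, where WT 3 stood alone at the top. Pfkp, the platelet-type subunit, was at 70.1, 75.5 and 85.7 CPM in SAKI mice against 87.9, 66.3 and 113 CPM in WT mice. The muscle-type subunit Pfkm was at 95.6, 41.3 and 67.4 CPM in SAKI mice against 143, 46.7 and 45.1 CPM in WT mice, with WT 1 and SAKI 1 the highest. All 3 log2 fold changes were below 0 (-0.34 to -0.20) and none passed the test.

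Among the enzymes from aldolase to pyruvate kinase, Pgk1, which makes the first ATP of glycolysis, was at 141, 125 and 151 CPM in SAKI mice against 205, 142 and 222 CPM in WT mice. WT 2 lay inside the SAKI range, and the log2 fold change was -0.45 (SE 0.18, adjusted p = 0.260 from edgeR). Pgam1, the mutase after it, was at 145, 153 and 159 CPM in SAKI mice against 174, 173 and 253 CPM in WT mice (log2 fold change -0.39, SE 0.17, adjusted p = 0.275 from edgeR). Every SAKI library was below every WT library, with WT 3 well above the rest. Aldoa, the main aldolase, was at 829, 649.8 and 804 CPM in SAKI mice against 1179, 802 and 1068 CPM in WT mice, and Tpi1, which interconverts the 2 triose phosphates, at 182, 206 and 202 CPM in SAKI mice against 275, 172 and 342 CPM in WT mice. In both, WT 1 and WT 3 lay above all SAKI libraries and WT 2 did not. Pkm, the pyruvate kinase of most tissues and the most abundant member per length at 202 FPKM in SAKI mice and 189.8 FPKM in WT mice, was at 513, 441 and 603 CPM in SAKI mice against 496, 487 and 508 CPM in WT mice, with the WT libraries inside the SAKI range. Eno1 (log2 fold change 0.14) and the brain-type aldolase Aldoc (0.61, at 0.589 to 1.65 CPM over all libraries) overlapped between the groups.

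At the lactate branch, Ldha, the subunit that favours making lactate, was at 561, 495 and 607 CPM in SAKI mice against 824, 628 and 908 CPM in WT mice. The groups did not overlap, but SAKI 3 and WT 2 nearly met. Ldha averaged 554 ± 56.0 CPM in SAKI mice and 786 ± 144 CPM in WT mice (SD, n = 3 each). Its log2 fold change was -0.50 (SE 0.17, adjusted p = 0.217 from edgeR). Ldhb, the subunit that favours lactate use, was at 56.1, 44.3 and 50.0 CPM in SAKI mice against 54.9, 58.6 and 76.3 CPM in WT mice (log2 fold change -0.34, adjusted p = 0.305 from edgeR), and WT 1 was within the SAKI range. Ldhb made up 17.4% ± 1.41 of lactate dehydrogenase FPKM in SAKI mice and 15.9% ± 2.25 in WT mice (SD, n = 3 each; 2-sided exact permutation test, p = 0.5).

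**Figure D2:**
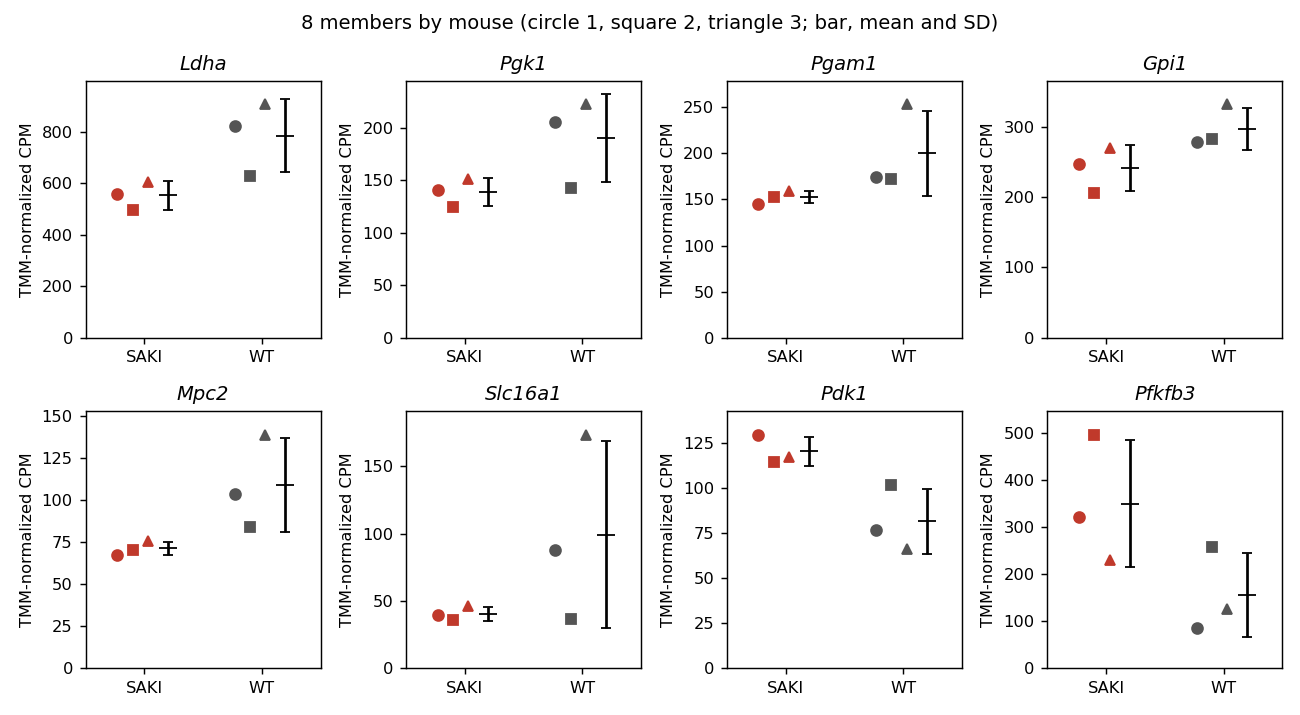
TMM-normalized CPM of 8 members in SAKI mice (red, left) and WT mice (grey, right), with 1 point per mouse (circle 1, square 2, triangle 3) and a bar for the mean and SD of the group. The SAKI points of Slc16a1 lie at 35.7 to 45.8 CPM beside WT points at 36.4, 87.6 and 174 CPM, and those of Pdk1 lie at 114 to 129.8 CPM above all WT points.

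Slc16a1 (MCT1), a carrier of lactate, pyruvate and ketone bodies across the cell membrane, had the lowest log2 fold change of the 35. It was at 39.5, 35.7 and 45.8 CPM in SAKI mice against 87.6, 36.4 and 174 CPM in WT mice. The SAKI libraries were close together and WT 2 was among them, so that the difference came from WT 1 and WT 3, which themselves lay far apart. The log2 fold change was -1.30 (SE 0.50, adjusted p = 0.247 from edgeR). The lactate exporter Slc16a3 (MCT4) was low throughout, at 6.77, 2.52 and 3.82 CPM in SAKI mice against 7.78, 2.59 and 4.51 CPM in WT mice, and the basal glucose transporter Slc2a1 (GLUT1) was at 23.5, 26.5 and 25.8 CPM in SAKI mice against 27.7, 20.5 and 36.6 CPM in WT mice. Both overlapped between the groups.

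Among the 35, 3 genes encode enzymes that make and break fructose-2,6-bisphosphate, the strongest activator of phosphofructokinase. Pfkfb3, the form with the highest kinase activity, was at 320.2, 496 and 230.0 CPM in SAKI mice against 84.5, 256 and 125 CPM in WT mice. SAKI 1 and SAKI 2 were above all WT mice, while WT 2 was above SAKI 3. Its log2 fold change of 1.17 (SE 0.45, adjusted p = 0.247 from edgeR) was the highest of the 35. Pfkfb1, the form of liver and muscle, was at 37.8, 37.1 and 34.7 CPM in SAKI mice against 26.8, 53.5 and 37.4 CPM in WT mice, and Pfkfb4, known from testis, at 13.0, 13.1 and 12.1 CPM in SAKI mice against 13.7, 23.6 and 8.96 CPM in WT mice. In both the SAKI libraries lay inside the WT range and WT 2 was the highest. A further gene of this family, Pfkfb2, is outside the 35 and overlapped between the groups (log2 fold change 0.36, adjusted p = 0.534 from edgeR).

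At the entry of pyruvate into mitochondria, Mpc2, a subunit of the pyruvate carrier, was at 67.5, 70.4 and 75.3 CPM in SAKI mice against 104, 83.9 and 139 CPM in WT mice. There was no overlap, with a log2 fold change of -0.61 (SE 0.18, adjusted p = 0.195 from edgeR). Its partner Mpc1 was at 32.5, 41.3 and 37.5 CPM in SAKI mice against 31.0, 42.8 and 29.8 CPM in WT mice (log2 fold change 0.10, adjusted p = 0.767 from edgeR), so the subunits of the carrier were not separated alike. Pdk1, a kinase that inactivates pyruvate dehydrogenase, was at 129.8, 114 and 117 CPM in SAKI mice against 76.7, 101 and 66.4 CPM in WT mice. It was the only member in which every SAKI library lay above every WT library (1 of 35, against 13.0% of genes tested), with a log2 fold change of 0.56 (SE 0.17, adjusted p = 0.192 from edgeR). Per length it was a minor kinase, at 10.7 FPKM in SAKI mice and 7.16 FPKM in WT mice, while Pdk2, which is common to many tissues, was at 36.1 FPKM in SAKI mice and 34.7 FPKM in WT mice (log2 fold change 0.03), and Pdk3 at 3.82 FPKM in SAKI mice and 3.41 FPKM in WT mice.

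The subunits of the pyruvate dehydrogenase E1 enzyme, Pdha1 and Pdhb, differed little between group means. Pdhb was at 219.7, 221 and 247 CPM in SAKI mice against 187, 236 and 289 CPM in WT mice, and Pdha1 at 587, 553 and 580.3 CPM in SAKI mice against 413, 672 and 599 CPM in WT mice. For both, the SAKI libraries lay inside the WT range. Pdp1, the phosphatase that switches the enzyme back on, had a log2 fold change of -0.36 with overlapping groups (adjusted p = 0.367 from edgeR).

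In glycogen metabolism, all 4 members had log2 fold changes below 0 and overlapping groups. Gys1, the glycogen synthase of most tissues, was at 111, 94.3 and 106 CPM in SAKI mice against 84.9, 153 and 122 CPM in WT mice. Gbe1, which adds the branches of glycogen, was at 98.8, 96.8 and 91.6 CPM in SAKI mice against 87.6, 110.3 and 139 CPM in WT mice. The SAKI libraries of both lay inside the WT range. Pygb, the brain-type glycogen phosphorylase, was at 216, 203 and 187 CPM in SAKI mice against 174, 285 and 192 CPM in WT mice. Pygm, the muscle-type phosphorylase, ranged most of all 35, at 145, 25.5 and 106 CPM in SAKI mice against 370.3, 33.1 and 55.8 CPM in WT mice. Its highest library was 14.5 times its lowest and both groups held high and low mice (log2 fold change -0.73, SE 0.97, adjusted p = 0.708 from edgeR).

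Of the muscle-type genes, Pygm and Eno3 varied from mouse to mouse in the order of the summed skeletal muscle markers, and Pfkm did so only in part. Both groups held high and low mice. The 16 markers summed to 3764, 508.8 and 2273 CPM in SAKI mice against 7700.2, 663 and 1141 CPM in WT mice, and 0 of the 15 tested had an unadjusted p under 0.05 with edgeR. Among the defining markers, Myh7, of slow fibres, was at 0 in SAKI 2 and WT 2, and no marker was at 0 in all libraries. Actn3, of fast muscle fibres, was at 192, 23.1 and 124 CPM in SAKI mice against 487, 35.5 and 58.3 CPM in WT mice. Pygm and Eno3, the muscle-type enolase (90.0, 24.4 and 55.5 CPM in SAKI mice against 127, 27.1 and 28.4 CPM in WT mice), had exactly the library order of this sum, which 63 of the 15400 genes tested had (0.409%). That order was WT 1, SAKI 1, SAKI 3, WT 3, WT 2 and SAKI 2 from high to low. Pfkm and Hk1 shared only its 3 highest libraries, as did 4.05% of genes counting those with the full order. Outside the 35, Pgam2, the muscle-type mutase, and Phka1, the muscle-type subunit of phosphorylase kinase, also had the full order. Pygb did not follow it.

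**Figure D3:**
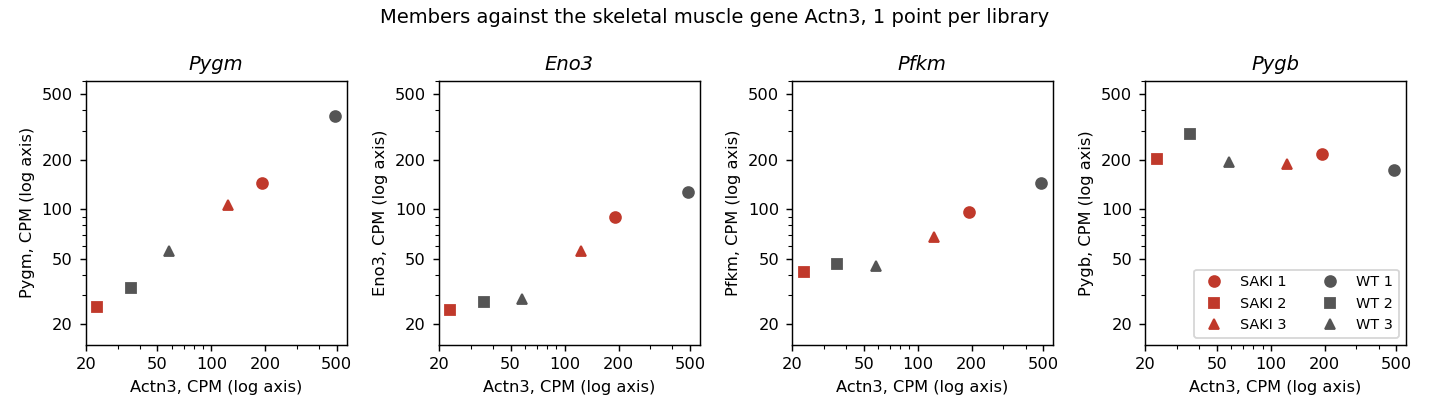
CPM of Pygm, Eno3, Pfkm and Pygb against CPM of the skeletal muscle gene Actn3, both on log axes, with 1 point per library (SAKI red, WT grey; circle 1, square 2, triangle 3). From SAKI 2 at 23.1 CPM of Actn3 to WT 1 at 487 CPM, Pygm spans 25.5 to 370.3 CPM, while Pygb spans 174 to 285 CPM with no such slope.

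The share of an enzyme's FPKM that came from its muscle-type gene was highest in WT 1 and then SAKI 1 for Pygm, Eno3 and Pfkm, and the full muscle order held for the Pygm share alone. Pygm made up 26.0%, 6.12% and 20.7% of glycogen phosphorylase FPKM in SAKI mice against 60.0%, 6.91% and 13.1% in WT mice. Eno3 made up 55.1%, 28.1% and 39.3% of enolase FPKM in SAKI mice against 70.3%, 26.5% and 27.7% in WT mice, with SAKI 2 above WT 2 and WT 3. Pfkm made up 52.6%, 34.0% and 39.3% of phosphofructokinase FPKM in SAKI mice against 61.6%, 34.0% and 22.6% in WT mice, with WT 3 the lowest. Over 8 such isozyme shares the 2-sided exact permutation p was 0.5 to 1, where 0.1 is the smallest that 3 mice against 3 allow, and the adjusted p was 1 in each. With the mean log2 level of the muscle markers as a covariate, the edgeR fit called 0 of the 35 genes and kept the sign of all but Hk2.

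Hif1a itself was at 112, 119 and 107 CPM in SAKI mice against 107, 96.9 and 159.9 CPM in WT mice, and the groups overlapped (log2 fold change -0.10, adjusted p = 0.796 from edgeR). Of 20 HIF-1 target genes outside glycolysis, 19 were tested and 0 were called with edgeR. At an unadjusted p under 0.05, 7 of the 19 (36.8%) were lower in SAKI mice, against 9.99% of all genes, and 0 were higher; the median log2 fold change was -0.42 and 13 were below 0. Angptl4, an inhibitor of lipoprotein lipase, was at 358, 309 and 349 CPM in SAKI mice against 667, 390.3 and 694 CPM in WT mice, without overlap (log2 fold change -0.79, adjusted p = 0.188 from edgeR). It was the 1 gene of these lists that DESeq2 called (adjusted p = 0.0233). Adm, which encodes the vasodilator adrenomedullin, was at 9.31, 9.50 and 8.16 CPM in SAKI mice against 10.9, 16.1 and 20.9 CPM in WT mice, and the oxygen sensor Egln1 at 77.6, 79.6 and 70.9 CPM in SAKI mice against 114, 83.7 and 132 CPM in WT mice, neither with overlap. The others were Plin2, a lipid droplet coat (-0.72), the collagen prolyl hydroxylases P4ha1 (-0.78) and P4ha2 (-0.55), and the mitochondrial protein gene Higd1a (-0.58). Angptl4 and Plin2 are also PPAR targets. Red cell markers, immediate early genes and endothelial markers summed to less in every SAKI mouse than in any WT mouse, and macrophage and Schwann cell markers to more. The summed adipocyte markers overlapped between the groups, though 15 of 16 had a log2 fold change below 0. Of these markers, 8 were lower at an unadjusted p under 0.05 with edgeR. The part of any of these in the target gene values was not tested. Without WT 2, edgeR called 7 of 20 targets (35%, against 16.6% of all genes), Loxl2 higher and Egln1, P4ha1, P4ha2, Higd1a, Plin2 and Angptl4 lower. At an unadjusted p under 0.05, 8 were then lower (40%, against 18.1%) and 2 higher (10%, against 17.0%).

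Of 55 other genes of these pathways, 49 were tested, 0 were called with edgeR or DESeq2, and 6 were lower (12.2%, against 9.99% of all genes) and 1 higher (2.04%, against 8.36%) at an unadjusted p under 0.05 with edgeR. Without WT 2, edgeR called 7 of the 49 (14.3%, against 16.6% of all genes), and 9 were lower (18.4%, against 18.1%) and 6 higher (12.2%, against 17.0%) at an unadjusted p under 0.05. Among the 7 was the enolase gene Eno2, lower in SAKI mice (log2 fold change -0.76, adjusted p = 0.0454 from edgeR without WT 2). Eno2 was at 5.27, 6.14 and 6.66 CPM in SAKI mice against 11.6, 6.35 and 8.96 CPM in WT mice. Slc2a4 (GLUT4), the insulin-regulated glucose transporter and one of the adipocyte markers, was at 154, 143 and 141 CPM in SAKI mice against 168, 200.3 and 196 CPM in WT mice, without overlap (log2 fold change -0.36, adjusted p = 0.198 from edgeR). Ppp1r3c, a subunit that brings protein phosphatase 1 to glycogen, was at 53.9, 61.4 and 62.8 CPM in SAKI mice against 36.7, 46.5 and 21.1 CPM in WT mice, also without overlap (log2 fold change 0.77, adjusted p = 0.222 from edgeR). Its relative Ppp1r3d lay the other way, at 9.25, 9.11 and 8.26 CPM in SAKI mice against 16.5, 13.1 and 10.5 CPM in WT mice (log2 fold change -0.59). The liver-type glycogen synthase Gys2 was at 6.12, 8.46 and 6.76 CPM in SAKI mice against 28.0, 5.05 and 59.4 CPM in WT mice (log2 fold change -2.11, adjusted p = 0.227 from edgeR), with WT 1 and WT 3 high, as for Slc16a1, and WT 2 the lowest. G6pdx, which opens the pentose phosphate pathway (-0.45), Pcx, which carboxylates pyruvate (-0.38), and the pyruvate dehydrogenase subunit genes Pdhx (-0.37) and Dld (-0.36) made up the rest of those named, of which Dld did not pass the unadjusted threshold. Pdk4, the kinase that rises on fasting, was the most abundant pyruvate dehydrogenase kinase at 184 FPKM in SAKI mice and 164 FPKM in WT mice, and it ranged from 614 to 941 CPM in SAKI mice against 320.3 to 1059 CPM in WT mice. Gapdh was listed at 8.62 FPKM in both groups, and 82.5% of the 50-base words of its longest coding transcript also occur in transcripts of other genes.

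Without WT 2, edgeR called 8 of the 35 genes, against 2598 of 15693 genes (16.6%). The 6 lower were Aldoa (log2 fold change -0.56), Tpi1 (-0.65), Pgk1 (-0.62), Ldha (-0.64), Slc16a1 (-1.69) and Mpc2 (-0.77), 17.1% of the 35 against 9.14% of all genes. Higher were Pfkfb3 (1.73) and Pdk1 (0.75), 5.71% against 7.41%. Their adjusted p with edgeR ranged from 0.0119 for Pdk1 to 0.0422 for Aldoa. WT 2 was singled out because it lay among the SAKI libraries in these same values. Leaving it out therefore tends to widen the differences between the groups, and these adjusted p values are no independent support for them. The median of the 35 was then -0.24 with 20 below 0 (57.1%, against 49.6% of all genes). With edgeR 9 were then lower at an unadjusted p under 0.05 (25.7%, against 18.1%) and 2 higher (5.71%, against 17.0%). The groups did not overlap for 11 lower genes (31.4%, against 26.3%) and 5 higher genes (14.3%, against 26.4%), where with all libraries it was 4 lower (11.4%, against 12.4%) and 1 higher (2.86%). WT 2 lay inside the SAKI range for 14 of the 35 genes (40%), against 34.1% of the genes tested. No other library, when left out, gave a call among the 35.

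**Figure D4:**
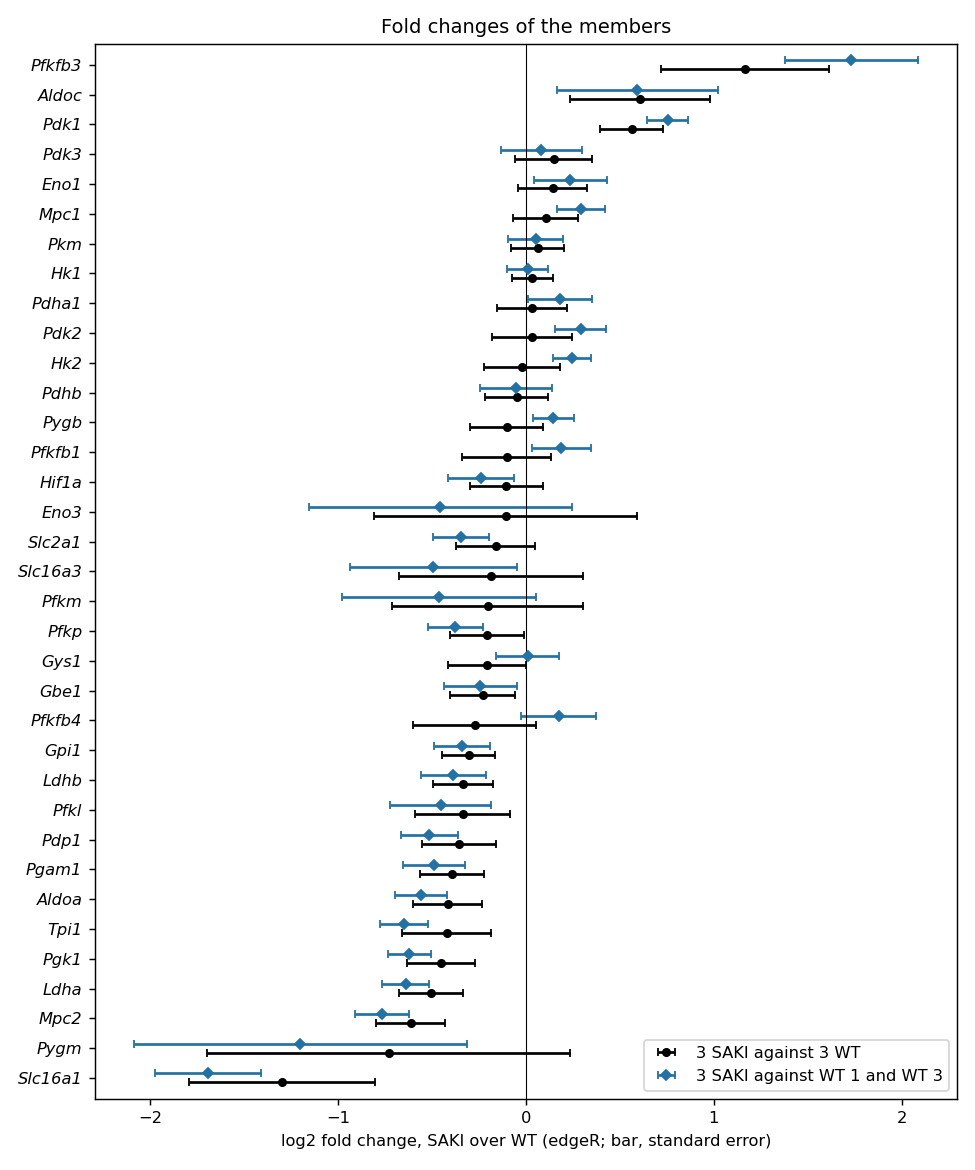
log2 fold change of SAKI over WT for each of the 35 genes, ordered by value, with bars of 1 standard error from edgeR, for 3 SAKI against 3 WT mice (black circles) and for 3 SAKI mice against WT 1 and WT 3 (blue diamonds). Slc16a1 and Pfkfb3 stand at the ends, at -1.30 and 1.17 with all libraries and -1.69 and 1.73 without WT 2, and Pygm and Eno3 have the widest bars.

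Reads of several members may have been shared with close copies. Of the 50-base words of the longest coding transcript, 72.2% in Eno1, 68.0% in Pgk1, 41.5% in Pgam1, 34.4% in Pkm and 16.6% in Ldha also occur in transcripts of other genes, among them Eno1b and Pgk1-rs7. It was 30.3% in Pdhb, 29.6% in Mpc1, 27.0% in Ldhb and 25.3% in Gpi1, and 0% in Slc16a1, Pdk1 and Mpc2. Exons of Gpi1, Aldoa, Tpi1 and Gys1 overlap those of Gm26762, Fam57b, Spsb2 and Ruvbl2 on the other strand. Those of Hk1, Pfkm, Pfkp, Slc2a1, Pfkfb1, Pdha1, Mpc1 and Hif1a also overlap a gene on the other strand. Pfkm, Pkm and Hif1a overlap a gene on the same strand. The strand setting is not given in the sources used here. Reads of such a pair cannot be told apart.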

How the data were processed

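RNA was extracted with the MJzol kit per the labels (Trizol in the study's methods), and poly(A) RNA was captured. The authors deposited unnormalized counts per gene, 1 table a library, and FPKM values of the 6 libraries in 1 further table. The deposited FPKM equalled those counts divided by gene length and by library total, within 0.0029% over 13186 genes. StringTie 1.3.0, Bowtie2 2.2.6 and HISAT2 2.0.4 stand in the submitters' processing notes with the build GRCm38. How reads were counted, with which annotation release and strand setting, is not given in the sources used here. Library totals were 15354161 to 18787036 counts, and 15400 genes passed filterByExpr (minimum count 10, total 15). The libraries were labelled as separate mice, and no pair differed as little as sampling noise allows (chi-square per degree of freedom 13.5 to 91.9).

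Counts were compared with edgeR 4.0.16 in R 4.3.3 (TMM, genotype alone in the model, quasi-likelihood test, Benjamini-Hochberg over all genes tested, adjusted p under 0.05), fitted on the whole table. SE is the log2 fold change divided by the square root of F. DESeq2 1.42.0 and limma 3.58.1 (voom, and log2(FPKM + 1) or log2(FPKM + 0.1) with FPKM of at least 1 in 3 libraries) were alternatives, as were other scalings, other filters, the replicate number, a muscle marker covariate and leaving out each library. The steps were tested on simulated data. Gene spans were those given with the deposited counts and FPKM values, and transcripts and exons were from GENCODE M21 on GRCm38. Promoters were from RefSeq on GRCm38.p6 (34 of 35 members matched, and Pdp1 did not), and motifs were searched on both strands.

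The 35 members and the lists of other genes were chosen with earlier results of these data known, and they support no test of a list. Every member is named. Values per library are given for members with an unadjusted p under 0.05 or without overlap, the most abundant of each role, further members of roles with fewer than 3 so named, and those that leaving out WT 2 or the muscle comparison brought up. Of the other pathway genes with an unadjusted p under 0.05 or without overlap, the 8 of smallest p are named. Also named are Pdk4, Gapdh, Pfkfb2, Pygl, the pentose phosphate genes and those the muscle comparison or leaving out WT 2 brought up. HIF-1 targets are named where the unadjusted p was under 0.05 with all libraries or where leaving out WT 2 gave a call.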

Additional observations from a re-analysis of the deposited data

How the results depend on the processing

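No member was called with edgeR, DESeq2, limma-voom or on FPKM values under any setting that kept all 6 libraries. Left out in turn, libraries gave 0 to 8 members called, all 8 without WT 2. At an unadjusted p under 0.05, leaving out libraries gave 1 to 9 members lower and 0 to 2 higher. Without overlap it gave 5 to 11 lower and 2 to 5 higher, but fewer libraries make this easier for every gene. The 9, 11 and 5 came without WT 2, where 18.1% of all genes were lower at that p. There 26.3% of all genes were lower and 26.4% higher without overlap, against 12.4% and 13.0% with all libraries. The share of all genes without overlap was not counted with another library left out. On FPKM values (pseudocount 1, pseudocount 0.1, or no filter) 2 were lower. The median of the members was -0.12 with limma-voom, -0.0889, -0.0992 and -0.0579 on FPKM values (pseudocount 1, 0.1, and 1 without a filter), and -0.27 to -0.14 with libraries left out. Of the other pathway genes, 0 to 7 were called, 2 to 9 lower and 0 to 6 higher with libraries left out, and 2 were higher on FPKM values with a pseudocount of 1 or 0.1. Of the HIF-1 targets, 0 to 7 were called and 4 to 8 lower with libraries left out, and 1 was called with DESeq2. The highest of these counts with a library left out came without WT 2, where edgeR called 16.6% of all genes. At an unadjusted p under 0.05, 18.1% of all genes were then lower and 17.0% higher. Isozyme shares gave no call; left-out libraries moved the difference of the Pygm share from -18.9 to 7.60 percentage points.

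The sign of the fold change was not fixed for the following genes. Hk2 was at 0.0067 with upper-quartile scaling, 0.013 with limma-voom, 0.0015 with a mean of at least 5 CPM, 0.0169 with the muscle covariate, and 0.0328, 0.036 and 0.0328 on FPKM values in the order above. Eno3 was at 0.10 with limma-voom and 0.11, 0.13 and 0.11 on FPKM values. With libraries left out, the log2 fold change ranged from -0.0077 to 0.11 for Hk1, -0.16 to 0.25 for Hk2, -0.51 to 3e-04 for Pfkl, -0.54 to 0.57 for Pfkm, -0.0109 to 0.24 for Eno1, -0.62 to 1.03 for Eno3, -0.0587 to 0.14 for Pkm, -0.34 to 0.068 for Slc2a1, -0.65 to 0.30 for Slc16a3, -0.32 to 0.19 for Pfkfb1, -0.55 to 0.17 for Pfkfb4, -0.13 to 0.29 for Pdk2, -0.15 to 0.18 for Pdha1, -0.20 to 0.12 for Pdhb, -0.0053 to 0.29 for Mpc1, -0.40 to 0.0083 for Gys1, -0.24 to 0.15 for Pygb, -1.22 to 1.05 for Pygm and -0.24 to 0.15 for Hif1a. The cause was not tested.

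Replicate numbers are shared between the groups, but nothing says what they mean, and same-numbered libraries hardly deviated together (correlations 0.0586, 0.0608 and 0.0736). With the replicate number as a block, edgeR called 1 gene and 0 members, Hk2 stood at 0.0149 and Eno3 at 0.10.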

Other observations

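Of the 7 pentose phosphate pathway genes, which serve NADPH and ribose supply, 5 lay lower and 2 higher by the sign of the fold change. Of all genes tested, 50.4% lay lower. With all libraries 0 of the 7 were called. Of the NADPH-making enzymes, G6pdx was at 124, 123 and 146 CPM in SAKI mice against 182, 139 and 216 CPM in WT mice and Pgd was at 167, 180.3 and 232 CPM in SAKI mice against 275, 188 and 346 CPM in WT mice. Tkt, the transketolase of the other arm, was at 1012, 832 and 1052 CPM in SAKI mice against 427, 1071 and 652 CPM in WT mice. Without WT 2, 3 of the 7 were called, in a fit that called 16.6% of all genes. G6pdx (log2 fold change -0.60, adjusted p = 0.0283 from edgeR) and Pgd (-0.68, adjusted p = 0.0470) were lower and Tkt (0.84, adjusted p = 0.0436) higher. Rpe (-0.42), Taldo1 (-0.19), Pgls (-0.07) and Rpia (0.05), given with all libraries, were not called in either fit. Fibroblast and progenitor markers summed to 10789 to 12094 CPM in SAKI mice against 5732, 11824 and 4079 CPM in WT mice, and Tkt was likewise high in WT 2. Their part in it was not tested.

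Glycogen-targeting subunits of protein phosphatase 1 also differed in direction. Ppp1r3b was at 32.4, 26.8 and 38.1 CPM in SAKI mice against 13.4, 30.6 and 20.6 CPM in WT mice. Without WT 2 it was called higher together with Ppp1r3c (log2 fold changes 0.93 and 1.04, adjusted p = 0.0430 and 0.0320 from edgeR), as were 7.41% of all genes. Ppp1r3d was then at -0.60 and was not called (adjusted p = 0.0996). The glycogen synthase gene Gys2 was called lower without WT 2 (log2 fold change -2.62, adjusted p = 0.00779 from edgeR), as were 9.14% of all genes. Pygl, the liver-type phosphorylase, was at 249.7, 238 and 269 CPM in SAKI mice against 111, 226 and 226 CPM in WT mice without overlap (log2 fold change 0.43, adjusted p = 0.415 from edgeR). Per length it stood at 52.8 FPKM in SAKI mice and 38.2 FPKM in WT mice, beside Pygb at 36.3 FPKM in SAKI mice and 38.3 FPKM in WT mice.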
